A study of Rattus norvegicus with 30 samples.

Results

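Primary rat hepatocytes kept in vehicle alone were compared between 48 h and 24 h after the vehicle was added, with 5 arrays at each time. These 10 arrays are the 5 titled 48 h and the 5 titled 24 h with 1% DMSO among the 30 arrays of a study of diisononyl phthalate (DINP), a plasticiser, and every probe set that is not an Affymetrix control was kept. In the terms of the labels, the cells were frozen hepatocytes from male Sprague Dawley rats, thawed, plated on collagen, overlaid with Matrigel (a basement membrane gel) and dosed on day 3 of culture. The other 20 arrays came from cells given 25 mM or 100 mM DINP in 1% DMSO, 5 at each dose and time. DMSO (dimethyl sulfoxide) is the solvent of the study and was present in every group, so the vehicle cells are not untreated cells. The 48 h and 24 h cells differ both in time in culture and in time in DMSO, and the effects of these cannot be told apart. The labels count 5 separate cultures per group, each 1 well of a plate, and do not give the number of donor animals, so a p-value here speaks only of well-to-well variation, which may be technical. Neither fresh liver nor cells before dosing were analysed here.

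Hepatocytes make most plasma proteins, among them albumin, clotting factors, complement and apolipoproteins, and clear drugs and hormones with cytochrome P450 enzymes. These functions rest on liver-enriched transcription factors such as HNF4A and the C/EBP proteins, and on hormone signals that reach the liver through the blood. In plated hepatocytes, liver-specific transcripts are known to decline over days while genes of the cytoskeleton and of cell adhesion rise, and a Matrigel overlay is used to slow this.

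A probe set is a group of short probes that report 1 transcript, and its MAS5 signal is a linear brightness. The deposited signals had nearly the same trimmed mean, 1501, on all 30 arrays. Differences are given as log2(signal + 16) at 48 h minus 24 h with the standard error (SE), and a gene is called changed at an adjusted p below 0.05 in a limma fit of all 6 groups. An array's mean correlation was 0.969 to 0.976 with the others of its group and 0.960 to 0.971 with those of the other time. The first principal component, 23.1% of the variance, put all 5 arrays at 48 h on one side and all 5 at 24 h on the other. Replicate 1 at 48 h was the outlying array of its 5 on 489 probe sets, against 160 to 315 for the other arrays, and without it 2022 instead of 2674 probe sets (14.4% of 18625 tested; 6.67% higher and 7.68% lower) were called. The poly-A spike controls, bacterial RNAs added during labelling, were brighter at 48 h, with a log2 mean of 10.72 to 11.05 against 10.32 to 10.58 (exact permutation test, p = 0.0079, the smallest that 5 against 5 arrays allow, adjusted p = 0.0317 over 12 summed markers and controls). Their part in the results was not tested.

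Hepatocyte markers were bright at both times: all 17 of the 17 matched markers were above the filter on dim probe sets, and 4 of them, Apob, Fgb, Hal and Hnf4a, were called lower at 48 h. Of these, Fgb lost its call with the median over its probe sets and the direction for Hnf4a depends on the probe set. Albumin, Alb, gave signals of 99873, 85281, 104449, 96979 and 123681 at 24 h and 105252, 105512, 87922, 114293 and 118851 at 48 h. These ranges overlapped, and neither Alb (log2 difference 0.06 ± 0.10, adjusted p = 0.758) nor the thyroid hormone carrier Ttr (log2 difference 0.07 ± 0.07, adjusted p = 0.62) was called. Markers of other liver cells were dim only in part. The mean over all 30 arrays lay below the dimmest tested mean for 2 of 11 matched Kupffer markers and 7 of 12 endothelial markers. The same held for 6 of 14 stellate, 4 of 8 bile duct and 9 of 10 leukocyte markers. Adgre1 of Kupffer cells, Pecam1, Stab1 and Vwf of sinusoidal endothelium and Lrat of stellate cells lay below the dimmest tested mean at both times. So did Krt7 and Cftr of bile duct cells and Ptprc of leukocytes. Others lay above it, such as Cd68 (log2 10.46 at 24 h) and Clec4f (9.43) of Kupffer cells, Kdr (9.46) of endothelium and Acta2 (9.63) of stellate cells. Cd163 of Kupffer cells, at log2 8.17 and 6.99, and Pdgfrb of stellate cells, at 6.93 and 8.40, were below it over all 30 arrays and were not tested. The summed signal of 14 stellate cell markers fell from 23480 to 25815 at 24 h to 20384 to 22454 at 48 h, and that of 8 matched bile duct markers rose from 10646 to 12532 at 24 h to 13694 to 16641 at 48 h (both exact permutation, adjusted p = 0.0317 over 12). Each sum rests on 1 marker: Dpt held 73.9% to 83.6% of the stellate sum, and Epcam 77.4% to 84.3% of the bile duct sum. Without them, a choice made after seeing the data and with no test, the stellate sum was 4200 to 5855 at 24 h and 4584 to 5315 at 48 h, and the bile duct sum 2206 to 2495 and 2344 to 2997, ranges that overlap. The stellate markers Acta2 (log2 difference 0.38), Des (0.12), Rgs5 (0.13), Reln (-0.16), Col1a1 (-0.13) and Col3a1 (-0.09) were not called. Nor were the bile duct markers Krt19 (0.06), Aqp1 (-0.01) and Slc4a2 (0.04). The sum of 12 matched endothelial markers was 3667 to 4763 at 24 h and 3013 to 4245 at 48 h, and that of 11 matched Kupffer markers was 13641 to 15364 and 13203 to 15398 (exact permutation, adjusted p = 0.114 and 0.327). Lyz2 held 57.8% to 71.0% of the Kupffer sum, and Fcgr2b 21.3% to 36.2% of the endothelial sum. Without Lyz2, again with no test, the Kupffer sum was 5389 to 6163 at 24 h and 3824 to 5027 at 48 h. Those ranges do not overlap. Without Fcgr2b the endothelial sum was 2569 to 3167 and 1957 to 2972, ranges that overlap. Fewer cells of a type and less RNA per cell cannot be told apart in such bulk samples.

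Of 10604 genes tested, 1006 (9.49%) were called higher and 840 (7.92%) lower at 48 h, which are the shares against which every gene list below is read. The lists were chosen with earlier results of these data known, so distances from these shares may partly follow from that choice. Most changes were small: the median absolute log2 difference of the 1846 called genes was 0.36, and 23 genes rose and 24 fell at least 2-fold. For 725 genes (6.84%) all 5 signals at 48 h lay above all 5 at 24 h, and for 615 (5.8%) all lay below. Falls in secreted proteins, P450s and interferon genes are described first, then rises in sterol, lipid, cytoskeletal and lysosomal genes.

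Serpina6, which encodes corticosteroid-binding globulin, the plasma carrier of glucocorticoids, showed the largest fall. Its signals were 3252, 3079, 3874, 3750 and 3186 at 24 h and 475, 563, 523, 661 and 479 at 48 h. No array at 48 h came near any at 24 h, and the level at 24 h was 6.21 times that at 48 h (log2 difference -2.64 ± 0.14, adjusted p = 5.62e-15). Serpina3c, a rat serine protease inhibitor, had signals of 22900, 25248, 27936, 27314 and 23820 at 24 h and 5920, 5718, 5590, 6363 and 5534 at 48 h. The groups were far apart, a 4.35-fold fall (log2 difference -2.12 ± 0.14, adjusted p = 1.99e-12). Its relative Serpina3l, at 25700, 25090, 29652, 26255 and 27431 at 24 h and 9572, 9967, 10032, 10703 and 10327 at 48 h, fell 2.65-fold, also without overlap (log2 difference -1.40 ± 0.10, adjusted p = 3.23e-12). The Serpina3 genes, like the Cyp2c and Cyp3a genes below, are close copies, and probe sets may share their signals. Afm, the vitamin E-binding carrier afamin, gave 10722, 10266, 11172, 10777 and 10470 at 24 h and 3794, 4350, 4370, 4596 and 4105 at 48 h. That is a 2.52-fold fall (log2 difference -1.33 ± 0.07, adjusted p = 3.77e-15), with the groups apart.

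Over the 26 serpins tested, a family looked at after these values were seen, 10 were called lower and 2 higher, with a median log2 difference of -0.17 against 0.03 over all genes. The falls ran from Serpina6 to the antithrombin gene Serpinc1 (log2 difference -0.25) and took in Serpina3n (-0.38), Serpina3m (-0.38), Serpina4 (-0.41) and Serpina10 (-0.29). Serpina1, the alpha-1-antitrypsin gene, was at 0.01 (adjusted p = 0.95). Serpine2, which encodes protease nexin-1, an inhibitor of thrombin and plasminogen activators, went the other way: its signals were 629.8, 436, 494, 762 and 737 at 24 h and 1910, 1445, 1582, 2139 and 1796 at 48 h. The groups did not overlap, a 2.89-fold rise (log2 difference 1.53 ± 0.12, adjusted p = 1.27e-10). Serpinb6a also rose (log2 difference 0.73).

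Rup2, a urinary protein of the lipocalin family that male rat liver secretes, is read by 4 probe sets. On the brightest the signals were 98794, 106920, 110884, 102252 and 99513 at 24 h and 41378, 38116, 43096, 44962 and 35209 at 48 h. The arrays did not overlap, a 2.56-fold fall (log2 difference -1.36 ± 0.10, adjusted p = 7.64e-12). Of its other probe sets, 2 fell further, with log2 differences of -1.66 and -2.37, and the dimmest was at 0.13 and not called. Such lipocalin genes are near-identical copies, so probe sets may share their signals and the value for 1 copy is uncertain. Car3, carbonic anhydrase 3, an abundant enzyme of male rat liver, gave 2580, 3209, 3608, 2789 and 2390 at 24 h and 1147, 1177, 1261, 1061 and 981 at 48 h. It fell 2.55-fold with no overlap (log2 difference -1.35 ± 0.13, adjusted p = 1.22e-08).

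**Figure D1:**
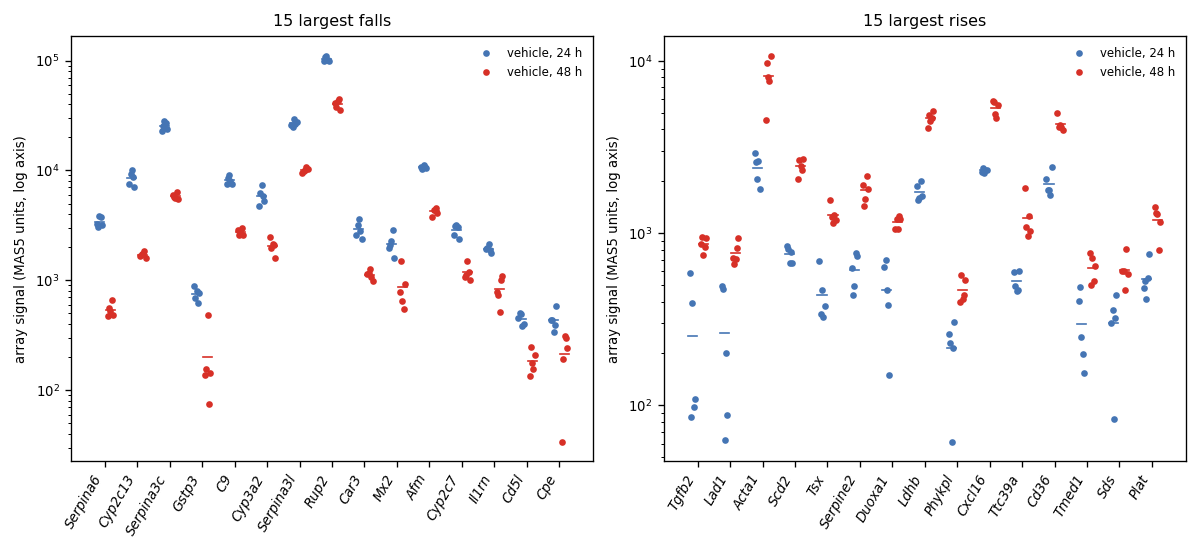
MAS5 signal of each vehicle array, on a log axis, for the 15 largest called falls (left) and rises (right) among genes with no overlap of the groups, from 24 h (blue) to 48 h (red). Points are single arrays, 5 at each time, and short lines are their means. Only genes whose groups did not overlap could be chosen, so the gap between the groups is set by the choice. The spread is widest for the dim ones such as Tgfb2, Lad1, Gstp3 and Cpe.

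The complement system, a cascade of plasma proteases ending in a membrane pore, was lower in most of its tested members. Of 15 tested members of 20 listed, 9 were called lower and 0 higher, with a median log2 difference of -0.34. C3, C5, C6, C8a, C8b, C8g and C9 were lower, with both chains of the inhibitor C4b-binding protein, C4bpa and C4bpb. C9, the subunit that forms the ring of the pore, had signals of 7566, 8502, 9158, 7983 and 7500 at 24 h and 2878, 2581, 2802, 2995 and 2568 at 48 h. These did not overlap, a 2.93-fold fall (log2 difference -1.55 ± 0.09, adjusted p = 1.84e-14). C4bpb gave 3086, 2979, 2989, 3272 and 2608 at 24 h and 2277, 1881, 1405, 1661 and 1326 at 48 h, again without overlap (log2 difference -0.82 ± 0.11, adjusted p = 4.29e-06). C6 gave 2279, 2024, 2520, 2115 and 2065 at 24 h and 1684, 1512, 1342, 1147 and 1544 at 48 h and fell 1.52-fold (log2 difference -0.61 ± 0.10, adjusted p = 7.66e-05). C5 fell 1.43-fold (log2 difference -0.51 ± 0.13, adjusted p = 0.00457), although the highest of its 48 h signals, 3198, lay above the lowest at 24 h, 3080. Counts in this list did not move by over 1.5 times without any 1 array.

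The 250 bases before the annotated start are shown for C6, C4bpb and C5, 3 of the 7 lower complement genes with an entry in the RefSeq promoter table (build GRCr8), since most tested members of the list were called lower. Each is printed in the direction of its gene, and capitals mark 1 motif in each: TTGCNNAA, the C/EBP type, in C6 (chr2:55573383-55573632, a plus-strand gene) at position -176, read on the strand opposite to the gene; TTCNNNGAA, the STAT type, in C4bpb (chr13:44683782-44684031, a minus-strand gene) at position -156; and GTTAAT, any 2 bases and TTA, the HNF1 type, in C5 (chr3:38759469-38759718, a minus-strand gene) at position -35, also read on the opposite strand. Positions are counted back from the annotated start.
C6: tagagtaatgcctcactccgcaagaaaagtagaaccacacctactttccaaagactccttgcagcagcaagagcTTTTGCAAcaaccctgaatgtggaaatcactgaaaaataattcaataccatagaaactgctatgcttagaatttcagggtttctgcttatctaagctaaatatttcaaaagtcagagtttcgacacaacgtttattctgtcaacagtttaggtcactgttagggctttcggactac
C4bpb: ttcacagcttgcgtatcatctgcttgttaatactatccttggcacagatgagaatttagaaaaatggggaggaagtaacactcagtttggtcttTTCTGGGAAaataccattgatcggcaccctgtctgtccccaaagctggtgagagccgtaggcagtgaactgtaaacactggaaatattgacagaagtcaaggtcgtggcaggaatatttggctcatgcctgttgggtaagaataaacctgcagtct
C5: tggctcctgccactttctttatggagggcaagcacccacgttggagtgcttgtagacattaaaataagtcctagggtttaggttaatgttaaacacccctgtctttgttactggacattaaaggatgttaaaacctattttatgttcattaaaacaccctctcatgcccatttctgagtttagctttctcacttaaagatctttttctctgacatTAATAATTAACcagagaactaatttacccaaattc
Both strands were searched. The C/EBP-type motif was in 5 of the 7 lower complement genes with an entry (C3, C6, C8a, C8b and C4bpa), in 1 of 5 that were not called (C1r), and in 9.2% of all 27457 promoters of that length or 7.67% of those of tested genes. Among acute phase genes it was in 2 of 5 that were lower and 4 of 8 that were not called, and among albumin and other carrier genes in 6 of 9 that were not called. In the clotting and fibrinolysis list it was in 4 of 6 that were lower and 1 of 7 that were not called. Whether called and other genes differ in this was not tested. The STAT-type motif was in 2 of the 7 and in 5.8% of promoters of tested genes, and the HNF1-type motif in 1 of the 7 and in 0.191%. Such a match is a stretch of letters and not a measured binding site.

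Clotting and fibrinolysis genes showed a like pattern. Of 17 tested members, 9 were called lower and 1 higher, median -0.25. Klkb1, which encodes plasma prekallikrein, gave 5761, 4607, 5389, 5057 and 5046 at 24 h and 2877, 3667, 3699, 3539 and 3080 at 48 h. The arrays at 48 h lay below those at 24 h (log2 difference -0.62 ± 0.12, adjusted p = 0.00036). Serpind1, heparin cofactor 2, was at 2716, 2250, 2850, 3080 and 2476 at 24 h and 2178, 1987, 1604, 2181 and 1479 at 48 h, also without overlap (log2 difference -0.51 ± 0.11, adjusted p = 0.00133). Coagulation factor 5, F5, fell 1.42-fold (log2 difference -0.51 ± 0.11, adjusted p = 0.00165), and the fibrinogen beta chain, Fgb, fell 1.27-fold from a narrow 24 h range of 115537 to 131484 to 91006 to 100372 (log2 difference -0.35 ± 0.05, adjusted p = 3.21e-05), a call lost with the median over its probe sets (-0.35, adjusted p = 0.121). Fga, Hrg, Plg, Cpb2 and Serpinc1 were also lower. The 1 rise, F12, was not called without replicate 3 or 4 at 24 h or replicate 5 at 48 h.

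Among 15 tested genes of lipoprotein assembly, 7 were called lower and 1, Apoa5, higher, median -0.08. Apoa2, an apolipoprotein of high-density lipoprotein, had signals of 45572, 47507, 51096, 45761 and 45582 at 24 h and 29847, 23621, 25482, 27076 and 25352 at 48 h. The groups were apart by a 1.80-fold fall (log2 difference -0.84 ± 0.06, adjusted p = 8.23e-12). Lipc, hepatic lipase, gave 9207, 8988, 9580, 9776 and 9879 at 24 h and 4876, 5414, 5516, 5488 and 6391 at 48 h, with no overlap (log2 difference -0.78 ± 0.06, adjusted p = 7.41e-11). Apob, the structural protein of very low-density lipoprotein, fell 1.66-fold on its brighter probe set (log2 difference -0.73 ± 0.10, adjusted p = 1.02e-05), while its dim second probe set was at -0.09 and not called. Apoc1 fell 1.42-fold (log2 difference -0.50 ± 0.06, adjusted p = 8.93e-07), and Mttp, Lcat and Apom were also lower. Of the 11 tested albumin and carrier genes, Serpina6 and Afm were the only 2 called, and the list's median was 0.01.

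Acute phase proteins, whose synthesis follows inflammatory cytokines, split: 7 of 19 tested were lower and 3 higher, median -0.13. Il1rn, the interleukin-1 receptor antagonist, gave 1920, 1974, 2141, 1907 and 1781 at 24 h and 780.5, 734, 513, 998 and 1100 at 48 h. It fell 2.40-fold without overlap (log2 difference -1.27 ± 0.14, adjusted p = 9.97e-08). Hamp, which encodes the iron hormone hepcidin, was at 4720, 3579, 4685, 4835 and 3164 at 24 h and 1190, 2357, 1937, 2051 and 2701 at 48 h, a 2.08-fold fall with no shared range (log2 difference -1.06 ± 0.18, adjusted p = 0.00011). Ceruloplasmin, Cp, fell 1.65-fold (log2 difference -0.73 ± 0.10, adjusted p = 2.7e-06). A2m, the protease inhibitor alpha-2-macroglobulin and a major acute phase protein of the rat, went from 97246 to 103353 at 24 h to 51831 to 81455 at 48 h (log2 difference -0.59 ± 0.08, adjusted p = 8.33e-06). Crp, C-reactive protein, rose: its signals were 15143, 15374, 16185, 12828 and 21559 at 24 h and 33395, 23796, 20273, 23079 and 24188 at 48 h. One 24 h array, at 21559, lay above the lowest 48 h array (log2 difference 0.62 ± 0.13, adjusted p = 0.00117). Lbp and Cd14, both parts of the sensing of bacterial lipopolysaccharide, were the other rises.

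The genes of metal handling showed 5 falls and 0 rises among 14 tested, median -0.03. Hamp and Cp stand in this list as well as the last, and Tfrc, the transferrin receptor, fell 1.35-fold (log2 difference -0.43 ± 0.10, adjusted p = 0.00205). Slc30a10 and Slc39a8, transporters of manganese and zinc, were also lower. Mt1, metallothionein 1, was not called (adjusted p = 0.999). Without replicate 1 at 48 h there was 1 rise.

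Cytochrome P450 and other phase 1 genes fell unevenly: 10 of 28 tested were called lower and 3 higher, median -0.06. Cyp2c13, a steroid hydroxylase found mainly in male rat liver, gave 7595, 9274, 10090, 8636 and 7031 at 24 h and 1671, 1729, 1733, 1844 and 1598 at 48 h. The groups lay far apart, a 4.90-fold fall (log2 difference -2.29 ± 0.14, adjusted p = 1.66e-13). Cyp3a2, a steroid and drug hydroxylase likewise higher in males, had signals of 4766, 6209, 7415, 5872 and 5239 at 24 h and 2491, 1976, 2150, 2105 and 1602 at 48 h. No array overlapped (log2 difference -1.51 ± 0.14, adjusted p = 3.26e-09). Cyp2c7, a retinoic acid hydroxylase, gave 2562, 3138, 3204, 3077 and 2356 at 24 h and 1079, 1112, 1498, 1201 and 1000 at 48 h and fell 2.42-fold (log2 difference -1.28 ± 0.12, adjusted p = 6.67e-09). Cyp1a2, which oxidises caffeine and aromatic amines, was at 14158, 14979, 16029, 15392 and 15604 at 24 h and 5635, 8768, 7226, 7364 and 8941 at 48 h. It fell 2.03-fold with no overlap (log2 difference -1.02 ± 0.09, adjusted p = 1.46e-09).

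Not every P450 moved. Of 7 tested Cyp2c genes, 5 fell (Cyp2c13, Cyp2c7, Cyp2c12, Cyp2c23 and Cyp2c6v1), while Cyp2c11, the main male-specific form of rat liver, gave 19708, 20115, 21304, 17484 and 26154 at 24 h and 24682, 18472, 17620, 19201 and 19782 at 48 h. Its ranges overlapped fully (log2 difference -0.07 ± 0.13, adjusted p = 0.805). Of 4 Cyp3a genes, Cyp3a2, Cyp3a9 and Cyp3a18 fell and Cyp3a23-3a1 did not pass the test (log2 difference 0.11 ± 0.05, adjusted p = 0.193). In the remaining Cyp2 subfamilies 1 of 13, Cyp2b3, was lower and 1, Cyp2j4, higher. Cyp2e1 (log2 difference -0.05 ± 0.11, adjusted p = 0.809) and the bile acid enzyme Cyp7a1 (log2 difference 0.14 ± 0.17, adjusted p = 0.686) were not called. Cyp1a1 was not called with all arrays (log2 difference 0.07 ± 0.11, adjusted p = 0.761). Without replicate 1 at 48 h, at 26683 against 50112 to 58322 for the other 4, its difference was 0.28 and it was called (adjusted p = 0.000315). The 3 rises of this list, Cyp2j4, Por and Cyb5a, became 5 without replicate 5 at 24 h or replicate 3 at 48 h.

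Phase 2 genes, most of which attach glutathione, sulfate or glucuronic acid, had 7 of 27 tested higher and 3 lower, median 0.07. The rises were the glutathione transferases Gstt3, Gsta3, Gstp1, Gsta4, Gsta1 and Gstm4, and Ephx1. The falls were the sulfotransferases Sult1e1 and Sult1c3, and Gstk1. No tested sulfate or glucuronic acid gene of the list was called higher. Gstt3 had signals of 5340, 4555, 5439, 5431 and 5826 at 24 h and 7872, 6983, 7621, 6475 and 5809 at 48 h. A single 48 h array, at 5809, fell inside the 24 h range (log2 difference 0.38 ± 0.10, adjusted p = 0.00585). Gsta3, an alpha-class glutathione transferase, gave 15594, 15221, 15582, 13811 and 16270 at 24 h and 22717, 20140, 19949, 19076 and 16890 at 48 h, with no overlap (log2 difference 0.36 ± 0.06, adjusted p = 0.000176). Gstp3, a pi-class relative and no member of the list, had signals of 885, 694, 800.3, 623 and 759.9 at 24 h and 138, 154, 483, 75 and 144 at 48 h. All 48 h arrays were below all 24 h arrays, and since the 48 h mean lay below the dimmest tested mean the fall is given as at least 3.07-fold (log2 difference -2.08 ± 0.34, adjusted p = 6.33e-05). The 3 falls of the list became 1 without replicate 3 at 24 h. Among 24 tested membrane transporters 2 were higher, the basolateral exporter Abcc3 (log2 difference 0.54 ± 0.11, adjusted p = 0.00086) and the organic anion carrier Slc22a8 (log2 difference 0.38 ± 0.10, adjusted p = 0.00908), and 3 lower, among them Abcg2 (log2 difference -0.33 ± 0.09, adjusted p = 0.00911). Slc10a1, the sodium-dependent bile acid importer, gave 8674, 11042, 11710, 9292 and 10488 at 24 h and 7672, 9583, 8621, 8418 and 8016 at 48 h. It was not called (log2 difference -0.27 ± 0.10, adjusted p = 0.0728), but was without replicate 1 at 24 h (adjusted p = 0.0347) or replicate 2 at 48 h (adjusted p = 0.0464) and after quantile normalisation (log2 difference -0.29, adjusted p = 0.0359).

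Interferon-stimulated genes, the antiviral set induced by interferons, moved in 1 direction only among called genes: 7 of 25 tested were lower and 0 higher, median -0.25. Mx2, a GTPase of the Mx family, gave 1974, 2088, 2283, 2855 and 1587 at 24 h and 784, 1484, 646, 545 and 919 at 48 h. The ranges were wide but apart (log2 difference -1.35 ± 0.19, adjusted p = 1.02e-05). Isg15, a ubiquitin-like modifier, had signals of 5445, 4560, 4417, 5847 and 3863 at 24 h and 2467, 2673, 2419, 1754 and 2697 at 48 h, a 2.00-fold fall (log2 difference -1.002 ± 0.13, adjusted p = 3.51e-06). Usp18, the protease that removes it, gave 4473, 4292, 4784, 5192 and 3806 at 24 h and 2532, 3254, 2512, 2462 and 2314 at 48 h. It too did not overlap (log2 difference -0.79 ± 0.13, adjusted p = 5.25e-05). Irf7, a transcription factor of the interferon response, fell 1.53-fold (log2 difference -0.61 ± 0.14, adjusted p = 0.00178), and Ifi44, Bst2 and Irf9 were also lower. Cxcl1, a neutrophil chemokine, fell 1.65-fold (log2 difference -0.73 ± 0.15, adjusted p = 0.00118), with Cxcl9 and Cxcl11, whereas Cxcl16, a chemokine with a membrane anchor, gave 2260, 2398, 2232, 2323 and 2335 at 24 h and 5875, 5769, 4930, 4682 and 5506 at 48 h. The latter was a 2.30-fold rise with no overlap (log2 difference 1.20 ± 0.10, adjusted p = 4.97e-10). The list that holds these chemokines had 5 rises and 3 falls among 23 tested, and 3 rises without replicate 5 at 24 h. Psmb10, an immunoproteasome subunit, was among the rises (log2 difference 0.73 ± 0.12, adjusted p = 5.71e-05).

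Of 9 tested Kupffer markers, 3 (Cd5l, C1qb and C1qa) were lower at 48 h. Csf1r (log2 difference 0.22) and Lyz2 (0.13) were not called. Nor were Clec4f (-0.996), Cd68 (-0.29), Aif1 (-0.24) and C1qc (-0.18), which lay lower at 48 h. Cd5l, a plasma protein made by tissue macrophages, gave 450.3, 499, 498, 384 and 399 at 24 h and 134, 246, 177, 157 and 209.5 at 48 h, a fall of at least 1.85-fold since the 48 h mean was below the dimmest tested mean (log2 difference -1.22 ± 0.19, adjusted p = 3.67e-05). C1qb fell at least 1.60-fold (log2 difference -0.92 ± 0.24, adjusted p = 0.00706), and Fcgr2b, an endothelial Fc receptor, fell 1.47-fold (log2 difference -0.56 ± 0.13, adjusted p = 0.00282). In all, 2 of 5 endothelial markers and 2 of 8 stellate markers were called lower, and 0 members of these lists or of the Kupffer list higher. Dpt, dermatopontin, was 1 of these 2 stellate markers (log2 difference -0.25 ± 0.05, adjusted p = 0.000631). The endothelial count was 1 without replicate 4 at 24 h, and the stellate count was 1 without replicate 1, 2 or 5 at 24 h or replicate 1 or 2 at 48 h. A stellate marker was higher without replicate 2 or 4 at 24 h or replicate 4 at 48 h. The part of other cells in the falls was not tested.

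The 250 bases before the start of Irf7, a lower interferon gene that also acts in the response, are shown from the same RefSeq table. Capitals mark GAAA, any 2 bases and GAAA, the interferon-stimulated response element, here on the strand opposite to the gene, at position -69, in chr1:205800024-205800273 of GRCr8 on the minus strand.
Irf7: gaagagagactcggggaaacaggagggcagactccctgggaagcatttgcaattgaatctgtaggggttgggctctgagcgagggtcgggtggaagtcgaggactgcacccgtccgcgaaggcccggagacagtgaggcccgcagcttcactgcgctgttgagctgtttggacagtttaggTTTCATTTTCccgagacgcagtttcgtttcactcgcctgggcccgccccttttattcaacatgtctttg
That motif was in 3 of the 4 lower interferon genes with an entry (Irf7, Ifi44 and Bst2), in 9 of 14 that were not called, and in 3.29% of all promoters. Most interferon genes with an entry held it, whether they were called or not.

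Of 20 tested genes of cholesterol synthesis and uptake, 12 were called higher, 1 lower and 7 were not called, median 0.26, with 8 to 14 rises when 1 array was left out. The rises covered the path from acetyl units to the last sterol steps. Acat2, the thiolase that starts it, gave 6954, 7232, 6581, 6887 and 7440 at 24 h and 10765, 10955, 9415, 9477 and 11530 at 48 h. There was no overlap (log2 difference 0.57 ± 0.07, adjusted p = 1.03e-06). Fdps, farnesyl diphosphate synthase, had signals of 35803, 39248, 36606, 32172 and 42515 at 24 h and 65774, 51569, 47013, 48026 and 58332 at 48 h, again apart (log2 difference 0.53 ± 0.08, adjusted p = 7.39e-06). Dhcr7, the last reductase, rose 1.43-fold (log2 difference 0.52 ± 0.08, adjusted p = 3.01e-05) and the sterol methyl oxidase Msmo1 1.40-fold (log2 difference 0.49 ± 0.08, adjusted p = 3.48e-05). Mvd, Pmvk, Fdft1, Sc5d, Insig1, Cyp51, Ebp and Nsdhl were the other rises. Sqle, squalene epoxidase, gave 9515, 9769, 11081, 11622 and 11220 at 24 h and 10174, 14098, 11591, 14016 and 15890 at 48 h. It was not called (log2 difference 0.29 ± 0.11, adjusted p = 0.0628), but was without replicate 1 at 48 h (adjusted p = 0.0149) or replicate 3 at 48 h (adjusted p = 0.0408), with the 60th percentile filter (0.0431) and with array weights (0.0166). The fall, Tm7sf2, was not called without replicate 3 or 5 at 24 h or replicate 2, 3 or 4 at 48 h. The CCAAT box was in 7 of the 10 higher genes with a promoter entry, in 5 of 5 that were not called and in 35.8% of promoters of tested genes, while the sterol regulatory element, spelled TCACNCCAC, was in 0 of the 10 and in 0.923%.

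Fatty acid and triglyceride synthesis followed with 9 of 24 tested higher and 1 lower, median 0.19. Fads1, the delta-5 desaturase, gave 1500, 1381, 1324, 1185 and 1344 at 24 h and 3171, 2147, 1866, 2056 and 2078 at 48 h. The arrays were apart, with replicate 1 at 48 h the highest (log2 difference 0.72 ± 0.13, adjusted p = 0.000144). Fasn, fatty acid synthase, had signals of 3285, 3777, 3644, 3592 and 3902 at 24 h and 8958, 4330, 4332, 5168 and 5089 at 48 h, and here too that array, at 8958, stood above the rest (log2 difference 0.56 ± 0.12, adjusted p = 0.00103). Without it 5 instead of 9 members were called higher, and Fads1 and Fasn kept their calls. Fads2, the delta-6 desaturase, was another rise. Scd2, a stearoyl-CoA desaturase outside the list, gave 840.4, 809, 669, 771 and 673 at 24 h and 2064, 2664, 2452, 2327 and 2695 at 48 h. On this brighter probe set Scd2 rose 3.19-fold with no overlap (log2 difference 1.68 ± 0.13, adjusted p = 2.08e-11). Its dimmer second probe set, at 0.48, was not called. The liver form Scd was the list's fall. Without replicate 1 at 24 h there were 2 falls. Cd36, a fatty acid translocase, gave 2056, 1783, 1768, 1673 and 2410 at 24 h and 4947, 4108, 4264, 4138 and 3988 at 48 h, a 2.22-fold rise (log2 difference 1.15 ± 0.14, adjusted p = 1.03e-06).

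Fatty acid oxidation and ketone genes had 9 rises and 2 falls among 29 tested, median 0.05. Acot1 was the largest of these rises, ahead of Cyp4a1. Cyp4a1, a fatty acid omega-hydroxylase and classical PPAR-alpha target, gave 8659, 7110, 7167, 7166 and 8631 at 24 h and 18099, 12132, 12675, 11305 and 10466 at 48 h. It rose 1.64-fold with no overlap (log2 difference 0.72 ± 0.11, adjusted p = 3.35e-05). Ehhadh, the peroxisomal bifunctional enzyme, rose 1.45-fold (log2 difference 0.54 ± 0.10, adjusted p = 0.000368). Bdh1, which interconverts the ketone bodies, was at 2137, 2320, 2464, 2525 and 2201 at 24 h and 1156, 1979, 1380, 1804 and 1588 at 48 h. It fell 1.49-fold on non-overlapping arrays (log2 difference -0.58 ± 0.10, adjusted p = 0.000131). The other fall, Etfa, was not called without replicate 1, 4 or 5 at 24 h or replicate 2, 3 or 5 at 48 h. Acaa2, counted as a rise, has a second probe set called lower, so its direction is uncertain. Bile acid synthesis had 4 rises and 1 fall among 15: Slc27a5, the bile acid CoA ligase, rose 1.59-fold (log2 difference 0.67 ± 0.11, adjusted p = 6.93e-05), Hsd3b7 1.43-fold (log2 difference 0.52 ± 0.06, adjusted p = 2.55e-07), and Acox2, a peroxisomal side-chain oxidase, fell 1.64-fold (log2 difference -0.71 ± 0.08, adjusted p = 4.15e-08).

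In glucose metabolism 7 of 31 tested genes were higher and 1 lower, median 0.03. Ldhb, the heart-type lactate dehydrogenase subunit, gave 1886, 1547, 1607, 2002 and 1649 at 24 h and 4075, 4849, 4457, 4637 and 5122 at 48 h. The groups were far apart, a 2.65-fold rise (log2 difference 1.41 ± 0.10, adjusted p = 3.23e-12). The platelet-type phosphofructokinase Pfkp rose 1.51-fold (log2 difference 0.59 ± 0.11, adjusted p = 0.000246) and aldolase A, Aldoa, 1.32-fold (log2 difference 0.40 ± 0.07, adjusted p = 0.000221), both forms that are not the main liver ones. Slc2a1, Gys2, Fbp1 and Tpi1 were the other rises. Pck1, the gluconeogenic carboxykinase, was not called (log2 difference 0.28 ± 0.13, adjusted p = 0.158), but was without replicate 3 at 48 h (adjusted p = 0.0377). The single fall, Gckr, was not called without replicate 2, 4 or 5 at 24 h or replicate 1 or 2 at 48 h, and there were 2 falls without replicate 5 at 48 h. Amino acid breakdown was mixed, with 8 rises and 7 falls among 55. Aass, of lysine breakdown, fell 1.79-fold (log2 difference -0.84 ± 0.09, adjusted p = 4.15e-08), Cth, the cysteine-forming lyase, 1.42-fold (log2 difference -0.51 ± 0.08, adjusted p = 5.06e-05), and the transaminase Got1 rose 1.35-fold (log2 difference 0.43 ± 0.07, adjusted p = 2.56e-05). Sds, serine dehydratase, gave 302, 358, 83.2, 323 and 435 at 24 h and 599.5, 599, 466, 813 and 579 at 48 h. One 24 h array, replicate 3, was far below its group, and the rise (log2 difference 1.13 ± 0.33, adjusted p = 0.0195) was not called without it (adjusted p = 0.099) or without replicate 4 at 48 h (adjusted p = 0.053). Without the latter, 5 instead of 8 members of the list were higher. Tat, the glucocorticoid-induced tyrosine transaminase, was not called (log2 difference -0.05 ± 0.09, adjusted p = 0.777).

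**Figure D2:**
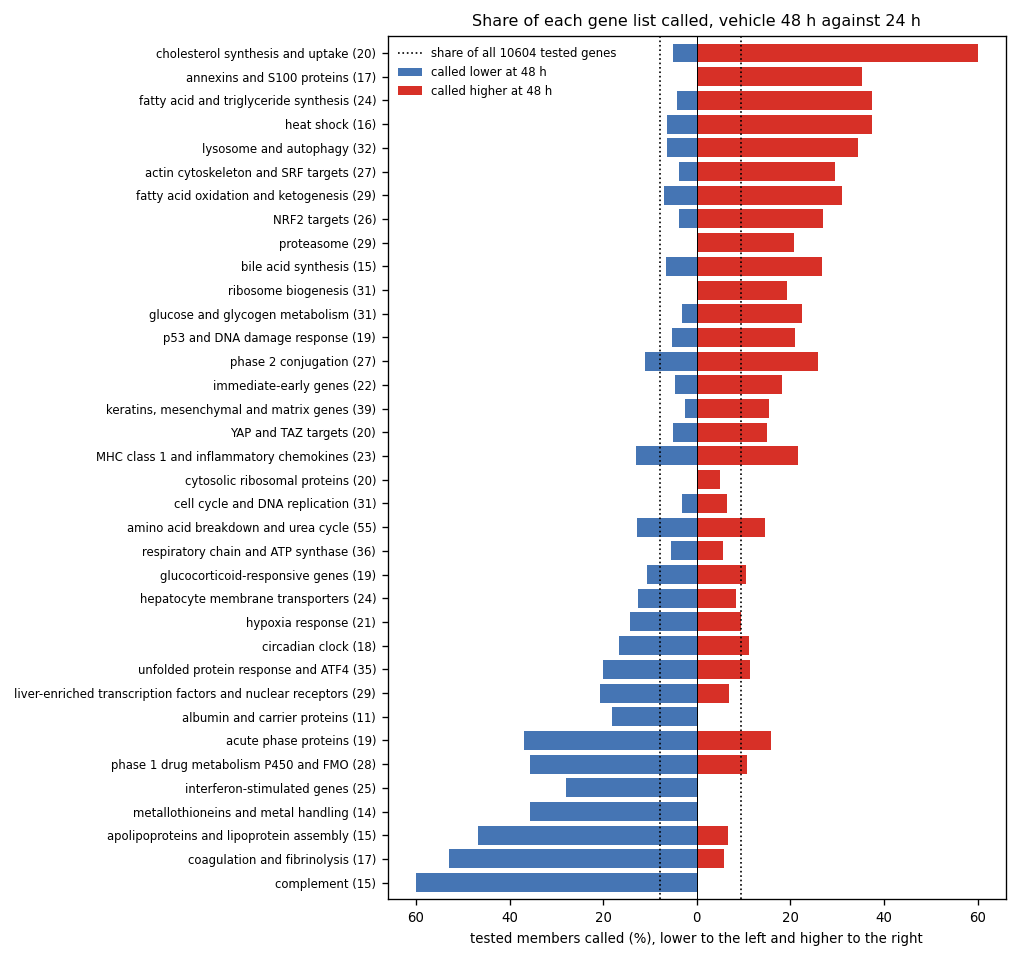
Percent of the tested members of each of 36 gene lists called lower (blue, to the left) and higher (red, to the right) at 48 h, with the number tested in parentheses. Dotted lines are the shares of all 10604 tested genes, 7.92% lower and 9.49% higher. Complement, clotting and lipoprotein genes reach furthest to the left and cholesterol genes furthest to the right.

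Of the liver-enriched transcription factors and nuclear receptors, 6 of 29 tested were lower and 2 higher, median -0.16. Rora, a nuclear receptor, gave 1522, 1709, 1682, 1805 and 1586 at 24 h and 824, 1240, 1020, 1077 and 1279 at 48 h on its brighter probe set. The arrays were apart (log2 difference -0.62 ± 0.12, adjusted p = 0.000544), while a dimmer probe set was at 0.43 and not called. Foxa1, a pioneer factor, fell 1.48-fold (log2 difference -0.57 ± 0.15, adjusted p = 0.00787) and the thyroid hormone receptor Thrb 1.29-fold (log2 difference -0.37 ± 0.08, adjusted p = 0.00156). Hnf4a had signals of 11398, 10118, 10632, 10812 and 12243 at 24 h and 9788, 7475, 8032, 9825 and 9432 at 48 h on its brightest probe set. That probe set fell (log2 difference -0.31 ± 0.06, adjusted p = 0.000707), another rose by 0.51 (adjusted p = 0.00203) and the third was at 0.02. The direction for Hnf4a therefore depends on the probe set. Cebpa was not called on any of its 5 probe sets (log2 difference -0.10 ± 0.09, adjusted p = 0.505 on the brightest). The 2 rises of the list became 1 without replicate 1, 2 or 3 at 24 h or replicate 5 at 48 h.

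The times were 24 h apart, so at about the same hour of the day. Among 18 tested clock genes 3 were lower and 2 higher. Clock, on its brighter probe set, gave 2214, 2381, 2464, 2543 and 2197 at 24 h and 1339, 1579, 1746, 1409 and 1157 at 48 h. There was no overlap (log2 difference -0.71 ± 0.11, adjusted p = 1.84e-05), and its dim second probe set was at -0.51 and not called. Npas2, its paralog, fell 1.43-fold (log2 difference -0.52 ± 0.13, adjusted p = 0.00609). Their partner Bmal1 (log2 difference -0.19 ± 0.13, adjusted p = 0.381), Per1 (log2 difference -0.03 ± 0.22, adjusted p = 0.961) and Dbp (log2 difference 1.13 ± 0.46, adjusted p = 0.104) were not called. The 2 rises, Bhlhe41 and Usp2, were not called without replicate 1, 2 or 4 at 24 h or replicate 2 or 4 at 48 h. Glucocorticoid-responsive genes were evenly split at 2 rises and 2 falls among 19, with Klf9 (log2 difference -0.37 ± 0.08, adjusted p = 0.00122) and Klf15 (log2 difference -0.30 ± 0.07, adjusted p = 0.00582) lower and Fkbp5 not called (log2 difference 0.08 ± 0.08, adjusted p = 0.608). The rises were 1 without replicate 3 or 4 at 24 h or replicate 1 or 4 at 48 h.

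Several cytoskeletal genes rose. Of 27 tested actin and SRF target genes, 8 were higher and 1 lower, median 0.24. Tagln2, transgelin 2, an actin-bundling protein, gave 3938, 5028, 5033, 4508 and 4271 at 24 h and 10471, 7642, 8320, 8907 and 11443 at 48 h. It rose 2.04-fold with no overlap (log2 difference 1.03 ± 0.12, adjusted p = 1.71e-07). Zyx, the focal adhesion protein zyxin, had signals of 1436, 1591, 1437, 1673 and 1200 at 24 h and 1765, 1960, 2046, 2002 and 2147 at 48 h, also apart (log2 difference 0.44 ± 0.11, adjusted p = 0.00526). Actn1, Lmna, Myl12a, Tmsb4x and Pfn1 were other rises. Srf itself, the transcription factor, rose on its brightest probe set (log2 difference 0.35 ± 0.10, adjusted p = 0.0158) but was not called without replicate 5 at 48 h (adjusted p = 0.0822), and another probe set was at -0.08. Without that array 4 instead of 8 members were higher, and the fall, Cald1, was not called without replicate 4 or 5 at 24 h or replicate 1, 2 or 5 at 48 h. Acta1, skeletal alpha-actin, not a member of the list, gave 2923, 2593, 2058, 2613 and 1794 at 24 h and 4514, 9660, 8077, 7612 and 10699 at 48 h. It rose 3.29-fold, and the lowest 48 h array, 4514, was above the highest at 24 h (log2 difference 1.72 ± 0.19, adjusted p = 6.95e-08). Vim, vimentin, was just short of the threshold (log2 difference 0.30 ± 0.11, adjusted p = 0.0514). It was called without replicate 1 at 48 h (log2 difference 0.43, adjusted p = 0.00145), with an added constant of 64 (adjusted p = 0.0499), the 60th percentile filter (0.0352), array weights (0.0093) or the median over probe sets (0.0455).

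Growth factor, matrix and adhesion genes gave 6 rises and 1 fall among 39 tested, median 0.17, with 12 more members below the filter. Tgfb2, transforming growth factor beta 2, had signals of 583, 85.1, 395, 97.5 and 109 at 24 h and 867, 953, 743, 834 and 941 at 48 h. All 5 arrays at 48 h were above all at 24 h, where 2 arrays were bright and 3 dim. Because the 24 h mean lay below the dimmest tested mean, the rise is at least 3.55-fold (log2 difference 2.11 ± 0.44, adjusted p = 0.00114), and its second probe set was not called. Plat, tissue plasminogen activator, gave 478, 530.2, 414, 546 and 755 at 24 h and 1425, 1302, 1286, 797 and 1153 at 48 h, a 2.16-fold rise without overlap (log2 difference 1.11 ± 0.16, adjusted p = 8.33e-06). Epcam, an epithelial adhesion molecule of bile duct and progenitor cells and 1 of the bile duct markers, rose 1.38-fold (log2 difference 0.47 ± 0.07, adjusted p = 4.3e-05). Krt19, a bile duct keratin, was not called (log2 difference 0.06 ± 0.26, adjusted p = 0.931). The fall, Itgav, was not called without replicate 4 at 24 h, and there were 3 falls without replicate 4 at 48 h. YAP and TAZ targets had 3 rises and 1 fall among 20. Ccn2, a matrix-associated growth regulator, rose 1.36-fold on non-overlapping arrays (log2 difference 0.44 ± 0.10, adjusted p = 0.00151), and Nt5e fell 1.33-fold (log2 difference -0.41 ± 0.07, adjusted p = 0.000228). There were 2 falls without replicate 3 at either time.

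Annexins and S100 proteins, calcium-binding proteins of the membrane and cytoskeleton, gave 6 rises and 0 falls among 17 tested, median 0.19. Anxa1 had the largest rise (log2 difference 0.89 ± 0.23, adjusted p = 0.00796). Its 24 h mean lay below the dimmest tested mean, and its arrays overlapped. S100a11 had signals of 32972, 28442, 29155, 30013 and 26545 at 24 h and 54755, 51916, 52042, 54618 and 57613 at 48 h. It rose 1.84-fold with no overlap (log2 difference 0.88 ± 0.09, adjusted p = 8.09e-09). Anxa3, on the brightest of its probe sets, gave 7692, 8618, 7410, 6695 and 5262 at 24 h and 11827, 12180, 11482, 11189 and 11460 at 48 h, likewise apart (log2 difference 0.72 ± 0.10, adjusted p = 2.7e-06), and its other probe sets, at 0.33 and -0.16, were not called. Lad1, ladinin, an anchoring filament protein, gave 494, 475, 62.7, 201 and 87.4 at 24 h and 719, 659, 705, 816 and 936 at 48 h. The 24 h mean lay below the dimmest tested mean, so the rise is at least 3.13-fold (log2 difference 1.86 ± 0.41, adjusted p = 0.00191).

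Heat shock genes, chaperones and their partners, rose in 6 of 16 tested and fell in 1, median 0.16. The small heat shock protein Hspb1 gave 4526, 4848, 4281, 4135 and 3353 at 24 h and 9124, 7263, 7166, 7785 and 6643 at 48 h. The groups were apart by a 1.80-fold rise (log2 difference 0.84 ± 0.12, adjusted p = 1.37e-05). Cryab, alpha-B-crystallin, had signals of 5256, 5532, 5464, 4827 and 4890 at 24 h and 7411, 10835, 10065, 8246 and 9861 at 48 h, a 1.77-fold rise (log2 difference 0.82 ± 0.09, adjusted p = 1.31e-07). The co-chaperones Bag3 (log2 difference 0.46 ± 0.12, adjusted p = 0.00761) and Dnajb1 (log2 difference 0.43 ± 0.10, adjusted p = 0.00428) also rose. The fall, Chordc1, was not called without replicate 3 at 24 h or replicate 5 at 48 h. In the unfolded protein response and ATF4 list 7 of 35 were lower, including the endoplasmic reticulum chaperones Canx, Pdia6 and Hsp90b1, 4 were higher and 24 were not called, median -0.04. Edem1, which feeds misfolded glycoproteins to degradation, fell 1.31-fold on its brightest probe set (log2 difference -0.39 ± 0.06, adjusted p = 1.8e-05) and was called lower on all 3. Phgdh, the first enzyme of serine synthesis and an ATF4 target, rose 1.57-fold (log2 difference 0.66 ± 0.11, adjusted p = 8.76e-05), as did Atf3 1.42-fold (log2 difference 0.51 ± 0.13, adjusted p = 0.00809). Without replicate 4 at 24 h there were 4 falls and 2 rises, and 2 rises without replicate 1 at 48 h.

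Lysosome and autophagy genes gave 11 rises and 2 falls among 32 tested, median 0.14. Ctse, the aspartic protease cathepsin E, gave 961, 862, 760.1, 1016 and 973 at 24 h and 1067, 1575, 1559, 1727 and 1595 at 48 h. All 48 h arrays were above all 24 h arrays (log2 difference 0.70 ± 0.13, adjusted p = 0.000392). Gpnmb, a lysosomal membrane glycoprotein, rose 1.42-fold (log2 difference 0.50 ± 0.10, adjusted p = 0.000619), and Gabarapl1, which coats autophagosomes, 1.36-fold (log2 difference 0.44 ± 0.05, adjusted p = 4.08e-07). Lgmn, Neu1, Mcoln1, Sqstm1, Ctsd, Ctsa, Lamp1 and Ctsh were the other rises. Ctss, cathepsin S, an enzyme of antigen-presenting cells, gave 1979, 2706, 2236, 2238 and 1839 at 24 h and 1475, 1524, 1212, 1302 and 1272 at 48 h. It fell 1.61-fold without overlap (log2 difference -0.68 ± 0.12, adjusted p = 0.000117). Without replicate 5 at 48 h there were 7 rises. NRF2 targets gave 7 rises and 1 fall among 26: Pgd, of the pentose phosphate pathway, rose 1.43-fold (log2 difference 0.51 ± 0.07, adjusted p = 3.89e-06), and the cystine importer Slc7a11 fell 1.35-fold (log2 difference -0.43 ± 0.11, adjusted p = 0.00558).

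**Figure D3:**
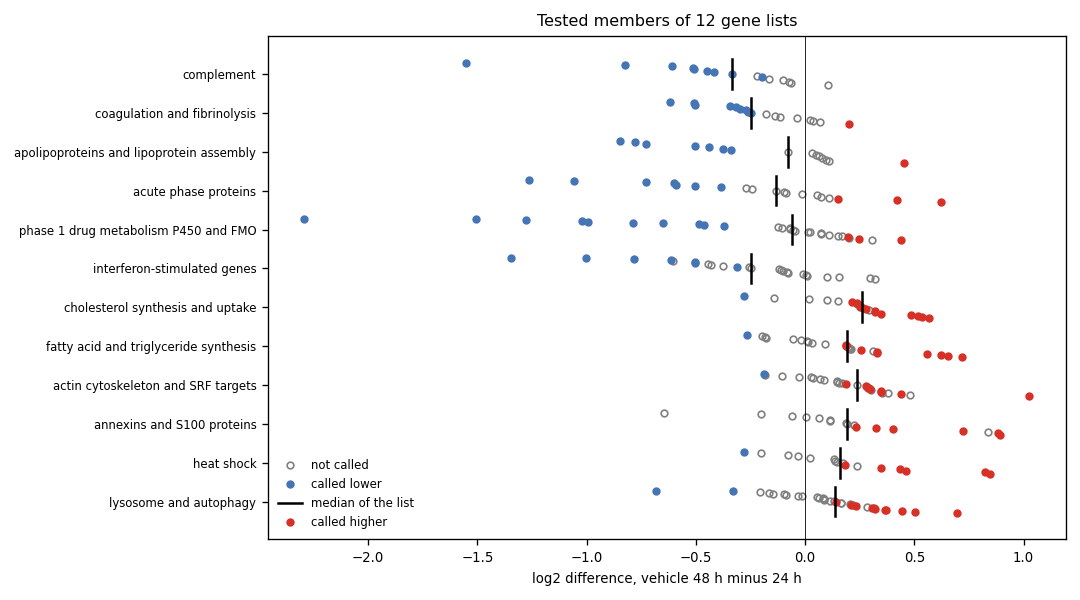
Log2 difference at 48 h minus 24 h for every tested member of 12 gene lists, 1 point per gene. Filled points are called lower (blue) or higher (red), open points are not called, and the black bar is the list's median, from -0.34 for complement to 0.26 for cholesterol synthesis.

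In the cell cycle list 2 of 31 tested were higher and 1 lower, with 20 more below the filter. Cdk4 rose 1.38-fold (log2 difference 0.47 ± 0.11, adjusted p = 0.00389), Spc24, a kinetochore subunit, fell 1.61-fold (log2 difference -0.69 ± 0.11, adjusted p = 7.58e-05), and Ccnd1 (log2 difference 0.22 ± 0.13, adjusted p = 0.303) and Cdkn1a (log2 difference -0.05 ± 0.08, adjusted p = 0.777) were not called. A second fall appeared without replicate 5 at 48 h. Of 20 tested cytosolic ribosomal protein genes 1, Rpsa, was higher. It was not called when any array but replicate 3 at 24 h or at 48 h was left out, and there were 3 rises without replicate 3 at 48 h. The proteasome list had 6 rises among 29, among them Psmc3 (log2 difference 0.35 ± 0.07, adjusted p = 0.000506), but 1 without replicate 2 or 4 at 24 h or replicate 1 or 5 at 48 h. Ribosome biogenesis had 6 rises among 31 and 2 without replicate 1 at 48 h, with 1 fall without replicate 1 at 24 h or replicate 2 at 48 h. Respiratory chain genes had 2 rises and 2 falls among 36, with 1 fall when any array but replicate 2 at 24 h or replicate 1 at 48 h was left out, and 4 rises without replicate 3 at 48 h. Immediate-early genes had 4 rises, with Jund (log2 difference 0.31 ± 0.05, adjusted p = 3.67e-05) and Atf3, and 1 fall, Klf10 (log2 difference -0.31 ± 0.07, adjusted p = 0.00414), among 22. The p53 list had 4 rises among 19 and 1 without replicate 1 or 3 at 24 h or replicate 1 or 5 at 48 h, with a fall in Tp53inp1 (log2 difference -0.56 ± 0.10, adjusted p = 0.000329). The hypoxia list had 2 rises and 3 falls among 21. Its rises were 4 without replicate 1 at 48 h and 0 without replicate 3 at 24 h or replicate 2, 4 or 5 at 48 h, and its falls were 1 without replicate 2 at 24 h or replicate 1 at 48 h.

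The remaining large changes belong to no list. Tsx, known as a testis-expressed gene, had signals of 686, 339, 465, 326 and 375 at 24 h and 1561, 1232, 1140, 1274 and 1193 at 48 h, a 2.94-fold rise without overlap (log2 difference 1.56 ± 0.16, adjusted p = 2.98e-08). Duoxa1, a maturation factor of the hydrogen peroxide-forming dual oxidase, gave 639, 701, 469.6, 385 and 149 at 24 h and 1053, 1206, 1050, 1250 and 1214 at 48 h. All 48 h arrays were higher (log2 difference 1.43 ± 0.23, adjusted p = 6.01e-05). Ttc39a rose 2.26-fold (log2 difference 1.18 ± 0.24, adjusted p = 0.000992). Cpe, carboxypeptidase E, a prohormone-processing enzyme, fell at least 1.79-fold, with replicate 1 at 48 h at 34.0 against 190 to 308 for the other 4 (log2 difference -1.20 ± 0.32, adjusted p = 0.00881), and was not called with the vehicle arrays alone (log2 difference -1.20, adjusted p = 0.082). Phykpl rose at least 1.94-fold (log2 difference 1.21 ± 0.33, adjusted p = 0.0116) and Tmed1 2.20-fold (log2 difference 1.14 ± 0.32, adjusted p = 0.0135). Phykpl was not called without replicate 3 at 24 h (adjusted p = 0.0596), nor Tmed1 without replicate 5 at 24 h (adjusted p = 0.0528). Afp, alpha-fetoprotein of fetal liver (log2 difference 0.01 ± 0.11, adjusted p = 0.981), and Igfbp1, an insulin-suppressed binding protein (log2 difference 0.12 ± 0.06, adjusted p = 0.222), were not called.

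The same interval was also sampled in cells given DINP, on arrays whose values do not enter the vehicle difference itself, though they share the filter and the variance estimate of the fit. With the vehicle arrays alone 2130 instead of 2674 probe sets were called in vehicle. Of the 1006 genes higher in vehicle, 498 (49.5%) were also called higher from 24 h to 48 h at 25 mM, where 944 genes (8.9% of those tested) rose, and 434 (43.1%) at 100 mM, where 669 (6.31%) rose. Of the 840 lower genes, 523 (62.3%) were also lower at 25 mM, where 962 (9.07%) fell, and 388 (46.2%) at 100 mM, where 541 (5.1%) fell. The shared genes made up 52.8% and 64.9% of the treated rises and 54.4% and 71.7% of the treated falls. At 25 mM 2 of the higher genes fell and 4 of the lower genes rose, and at 100 mM 2 fell and 3 rose. In all 3 conditions 355 genes rose and 346 fell. Across the 10604 genes, which are not independent replicates, the correlation of the vehicle change with the treated change was 0.55 at both doses, as a description. For Serpina6 the log2 difference was -2.40 at 25 mM and -2.15 at 100 mM, for C9 -1.58 and -1.40, and for Isg15 -1.47 and -0.95. Scd2 was at 1.44 and 1.53 and Acta1 at 1.61 and 1.95.

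For a few genes the change with time itself differed from vehicle, tested as the difference of the 2 time effects in the same fit: 38 genes (0.358%) at 25 mM and 12 (0.113%) at 100 mM. Cyp3a2 fell 2.84-fold in vehicle but was at -0.14 at 25 mM and 0.03 at 100 mM, differences of 1.37 and 1.54 (adjusted p = 0.0006 and 8.66e-05). Afm fell less in treated cells, at -0.56 and -0.48 on the log2 scale against -1.33 in vehicle (adjusted p = 6.23e-05 and 5.42e-06 for the differences). Apoa2 also fell less, at -0.42 and -0.41 against -0.84 (adjusted p = 0.0147 and 0.0251), and Bdh1, lower in vehicle, was at 0.32 and 0.22 (adjusted p = 0.00112 and 0.00845). Slc10a1 was at 0.45 at 25 mM against -0.27 in vehicle (adjusted p = 0.0147). Gstt3, at 1.18 against 0.38, and Gsta3, at 0.93 against 0.36, rose more at 25 mM (adjusted p = 0.00254 and 0.00151). Cryab and Gpnmb, which rose in vehicle, were at 0.12 and -0.14 at 25 mM (adjusted p = 0.00664 and 0.0367), and A2m fell further, at -1.22 against -0.59 (adjusted p = 0.0072). Among genes outside the lists' named members, chosen after their values were seen, Il1r2, the interleukin-1 decoy receptor, was at -2.05 and -1.89 against -0.31 in vehicle, S100a6 at -1.20 and -1.12 against -0.20, and the fatty acid-binding protein Fabp1 at 0.40 and 0.46 against -0.24, each called at both doses. The number of probe sets with such a difference was 45 (0.242%) at 25 mM, or 13 with median centring of the arrays, and at 100 mM it was 12 (0.0644%) with all arrays, 20 without replicate 2 at 24 h and 21 without replicate 1 at 48 h.

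**Figure D4:**
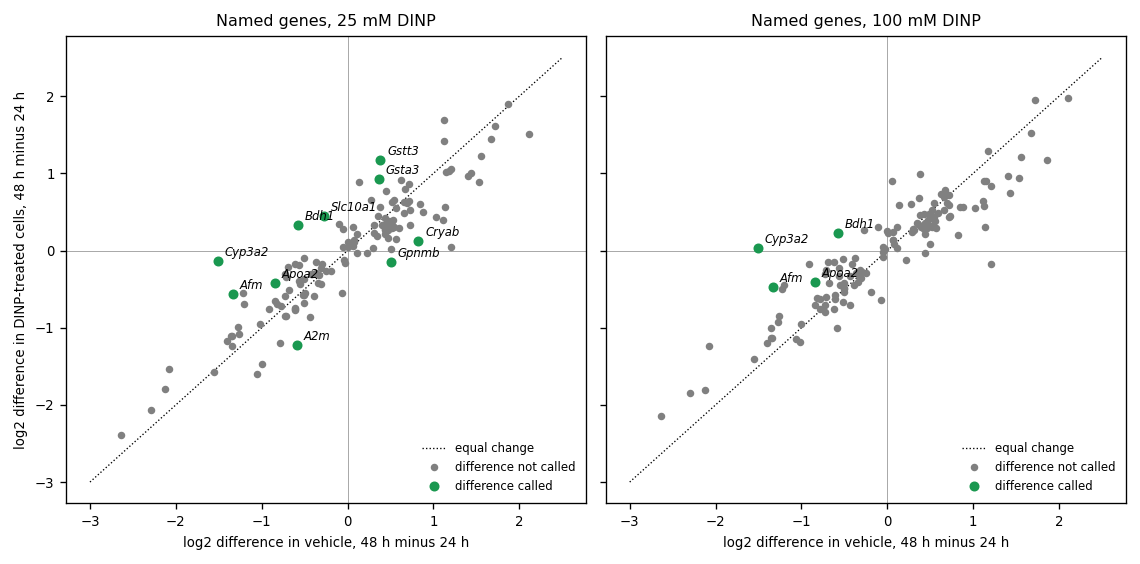
Log2 difference at 48 h minus 24 h in DINP-treated cells (vertical axis; left 25 mM, right 100 mM) against that in vehicle cells (horizontal axis) for the 136 named genes, 1 point each. Green points are genes whose time effect differed between treated and vehicle cells at an adjusted p below 0.05, and the dotted line marks an equal change. These genes were mostly chosen for a called change in vehicle. Some changed less in treated cells, such as Serpine2 (1.53 in vehicle, 0.89 at 25 mM and 0.94 at 100 mM) and Gstp3 (-2.08, -1.53 and -1.24). Others changed more, such as Gsta3 (0.36, 0.93 and 0.68). Cyp3a2, Afm and Bdh1 lie above the line at both doses.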

How the data were processed

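Expression was measured on Affymetrix rat arrays in 30 samples, 5 per group. The authors deposited 1 linear signal intensity per probe set. The submitters' processing notes name MAS5 as the tool, with its version not given in the sources used here, and each array had nearly the same trimmed mean. The labels describe 5 wells per group and the thawing of cells without naming donors. Of 31099 probe sets, 57 Affymetrix controls were set aside, and 20826 of the other 31042 had 1 gene symbol in GEO's platform annotation, 436 several and 9780 are unnamed here.

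From these intensities log2(signal + 16) was computed. After probe sets with a mean below the 40th percentile had been dropped, 18625 entered a limma model (version 3.58.1, under R 4.3.3). It held every group, 30 arrays in all, with a variance trend, 24 residual degrees of freedom and Benjamini-Hochberg adjustment over all probe sets tested. A gene is represented by its brightest tested probe set (10604 genes). A fold is on the log2(signal + 16) scale, which understates changes of dim genes. For a group whose mean lay below the dimmest tested mean (log2 7.96), the fold was computed against that mean and is written as "at least". Summed markers and controls were tested with two-sided exact permutation tests over 252 splits. Named genes are the 15 largest non-overlapping called rises and falls, up to 4 called members per list and a set of well-known liver genes; others named are said to be chosen after their values were seen or are listed members. Of the 1121 members of 43 lists, 873 matched a tested gene, and some of the well-known genes, such as Cyp2b1 and G6pc1, were not tested. The members and lists were chosen with earlier results of these data known. The fit was tested on simulated data.

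Promoters are the 250 bases before the start in RefSeq's table (GRCr8, 27457 promoters, 8884 of them of tested genes). The motifs searched on both strands were TCACNCCAC (sterol regulatory element), the CCAAT box, TTGCNNAA (C/EBP type), TTCNNNGAA (STAT type), CACGTG (E-box), TGCNCNC (metal response element), the interferon-stimulated response element and the HNF1 type as spelled in the report, and the heat shock element, CArG box and NF-kB type, given here by name alone, which may overlap one another. Alternatives were an added constant of 1 or 64, no filter or the 60th percentile, median centring, quantile normalisation, the vehicle arrays alone, no variance trend, array weights, the round of array numbers as a block, each gene's median probe set value, and leaving out each vehicle array. The number of arrays limits the precision.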

Additional observations from a re-analysis of the deposited data

Results flagged for a closer look

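In 24 of the 272 groups of 5 arrays looked at for the 136 named genes, 1 array stood apart from the other 4 beyond Dixon's critical value of 0.71, a rule by which chance alone flags about 1 group in 20. Levels are log2(signal + 16). At 48 h, replicate 1 was the array apart for 10 genes: high for Dhcr7 (14.35), Fads1 (11.64), Fasn (13.13), Phgdh (13.29) and Psmb10 (11.44), and low for Cpe (5.64), Nt5e (10.997), Edem1 (15.33), Ctse (10.08) and Cyp1a1 (14.70). The other arrays apart at 48 h were replicate 4 for Isg15 (10.79), replicate 2 for Usp18 (11.68), replicate 5 for Gpnmb (12.99) and replicate 3 for Dpt (13.88).

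At 24 h, replicate 3 was low for Phykpl (6.28), Sds (6.63), Ccn2 (13.01) and Bmal1 (9.66) and high for Afp (11.69). Replicate 5 was high for Abcc3 (11.89) and Tat (14.90). Replicate 4 was high for Npas2 (10.95) and low for Slc7a11 (10.41), and replicate 1 was low for Cyp1a1 (15.34).

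The time effect in DINP-treated cells differed from that in vehicle cells for 10 named genes, tested as a difference of log2 changes in the limma fit. At both doses, 25 mM and 100 mM in that order, it was higher than in vehicle for Cyp3a2 (1.37 and 1.54), Afm (0.77 and 0.85), Apoa2 (0.43 and 0.44) and Bdh1 (0.90 and 0.80). At 25 mM alone it passed the test for Gstt3 (0.80), Gsta3 (0.56), Slc10a1 (0.72), Cryab (-0.70), Gpnmb (-0.65) and A2m (-0.63). Whether the 2 doses differ from each other was not tested.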

How the results depend on the processing

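Over the alternatives tried, 2022 to 2917 probe sets were called, against 2674 as reported, and 0 of those also called as reported took the opposite direction. The share called higher was 44.5% to 48.3%. Of the 2674 probe sets, 1891 (without replicate 1 at 48 h) to 2663 (added constant of 64) were also called under a given alternative. Of the 113 named genes that were called, 103 kept their call under every alternative that tested them (Tgfb2, Lad1, Gstp3, Cd5l and C1qb were tested in 20 of 21) and 109 when any 1 vehicle array was left out. These genes were mostly chosen for large called changes, so their share does not stand for all calls. The number of probe sets at least 2-fold higher was 33 as reported, 58 with no filter and 20 with the 60th percentile filter, which follows from the dim probe sets admitted or removed. The number at least 2-fold lower was 44, with 81 and 25 under the same filters and 41 to 67 when 1 array was left out (67 without replicate 3 at 48 h). The number whose time effect differed from vehicle at 25 mM was 45 as reported and 13 after median centring. At 100 mM it was 12, with 24 after quantile normalisation, 25 with array weights and 10 to 21 when 1 array was left out. The causes were not tested. With the median over probe sets, Srf was at -0.078 and Hnf4a at 0.032, opposite in sign to the brightest probe set, and Fgb (-0.35), Rora (-0.09), Clock (-0.61) and Anxa3 (0.33) lost their call (adjusted p = 0.121, 0.743, 0.155 and 0.135). Cpe, still at -1.20, lost it with the vehicle arrays alone (adjusted p = 0.082). The labels give no replicate numbers. With the round of array numbers as a block, 2743 probe sets were called, 2588 of them also called as reported.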
